A study of Mus musculus with 4 samples.

Results

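Distal regions are stretches of open chromatin away from transcription start sites (TSS), and those examined here were the ones that opened in every ATAC-seq library of large peritoneal macrophages (LPMs), the resident macrophages of the mouse peritoneal cavity. ATAC-seq uses the Tn5 transposase to cut and tag accessible DNA. The regions were chosen by their peak calls. Peaks of the 4 libraries sharing at least 1 bp were merged, and a merged region was kept when it had a peak in all 4 libraries, when its midpoint lay in an intron or between genes, and when that midpoint was more than 1 kb from every RefSeq NM or NR TSS and outside exons and transcript ends. This left 6880 of 70744 merged regions, which is 9.73% of all regions, 45.3% of the 15199 regions called in all 4 libraries and 13.4% of the 51313 distal regions of any call pattern.

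Both genotypes carried floxed Rxra and Rxrb alleles on the C57BL/6 background and were 9 weeks old. The Rxrab fl/fl libraries (replicates 1 and 3) came from littermates without Cre and are called controls. The LysMCre+ Rxrab fl/fl libraries (replicates 1 and 2), called LysMCre+, came from mice that expressed Cre from the LysM locus, which is active in myeloid cells generally, so the deletion was not limited to LPMs. Each of the 4 libraries held 40000 sorted LPMs (F4/80 high, MHCII low, CD11b+, CD115+) and belonged to library batch 1. The comparison asked how chromatin accessibility depends on the retinoid X receptors in these cells. Peak positions alone leave the deletion of the floxed exons unchecked. In sorted but bulk samples, fewer cells with an open region and less openness per cell cannot be told apart. Nothing states that the libraries of a genotype came from separate mice, so p-values measure the spread between these libraries.

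As background, distal open regions are mostly enhancers, to which lineage-determining transcription factors such as PU.1, C/EBP and AP-1 proteins bind together, and they carry most of the difference in open chromatin between one macrophage type and another. In LPMs, GATA6 is the factor that sets peritoneal identity. The retinoid X receptors RXRα (Rxra) and RXRβ (Rxrb) are ligand-activated nuclear receptors that bind DNA as partners of other nuclear receptors, such as the retinoic acid, liver X and peroxisome proliferator-activated receptors.

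The sequence under the members was read from the reference genome (GRCm38.p6, the build named mm10) within 100 bp of the strongest summit of each region, taken over the 4 libraries. Short words recognised by families of transcription factors were searched on both strands. PU.1, the lineage factor of macrophages encoded by Spi1, was searched as GAGGAAGT. C/EBP factors were searched as TTGCNNAA, and AP-1 factors as TGANTCA. The RUNX word was TGTGGT. Factors of the GATA family were searched as AGATAA. The same search also took TGATAA as a GATA word. MEIS factors were searched as TGACAG, and the interferon regulatory factors (IRF) as GAAANNGAA. The KLF word was CCACNCCC, the SP word GGGCGGG, and the word of other ETS factors CCGGAAG. Nuclear receptors, RXR partners included, bind singly or in repeats to AGGTCA. Of the remaining words, CRE was TGACGTCA, MAF was TGCTGA, the composite ETS-IRF element was GGAANNGAA, STAT was TTCNNNGAA, and TFE was TCACGTG. MEF2, NF-kB, CTCF and the direct repeats DR1, DR4 and DR5 were searched by longer patterns. The PU.1 and IRF words can overlap the ETS-IRF word. A match is a description of the letters and does not show that a factor was bound. The following lines give 30 bases of mm10 around the match nearest the summit in the strongest member that held each word, to show which sequences the shares below refer to, with the match in capitals, read 5′ to 3′ on the strand that holds the word.
PU.1 in an intron 44.5 kb from the TSS of Grsf1, chr5:88631110-88631139, minus strand: tagggctgaaaGAGGAAGTctgagcaccct
C/EBP between genes, 15.9 kb upstream of E130018N17Rik, chr2:168170431-168170460, minus strand: tcaggctggtcTTGCCCAActctctaacag
AP-1 between genes, 12.4 kb downstream of the TSS of Tob2, chr15:81845838-81845867, plus strand: acagggttcagTGACTCAcccctatttctc
RUNX in an intron of Mrps27, chr13:99353394-99353423, plus strand: ggcatttgctccTGTGGTccccattggtgc
GATA between genes, 389.2 kb from the TSS of Atp6ap1l, chr13:90516181-90516210, plus strand: cctcccatttaaTGATAAcacacaatgaaa
MEIS in an intron 46.0 kb from the TSS of Car4, chr11:85003722-85003751, plus strand: agtgggtgagagTGACAGgttgcatgtagg
IRF in an intron 163.3 kb from the TSS of Oxr1, chr15:41612429-41612458, plus strand: gctagagctgGAAATAGAAcacagacctcg
KLF in an intron of Mrps27, chr13:99353419-99353448, minus strand: aaccaaggacgCCACACCCgcagcggcacc
CTCF between genes, 25.1 kb upstream of Zfp287, chr11:62756905-62756934, plus strand: agctccgctCCACCAGAGGGCgcaggggag

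The membership was set by the library with the fewest peaks. Control replicates 1 and 3 had 23290 and 7116 distal regions, and LysMCre+ replicates 1 and 2 had 45899 and 37804. The regions open in all 4 libraries were thus 96.7% of those of control replicate 3 and 14.99 to 29.5% of those of the other libraries, and 13415 distal regions were missed in control replicate 3 alone. Without control replicate 3 the rule kept 20295 regions. The member with the weakest q value in that library lay near Zbtb7c, with a −log10 q of 1.36 there and a fold enrichment of 10.1 and 3.40 in controls and of 10.8 and 8.06 in LysMCre+. Just outside, the strongest region missed in control replicate 3 alone lay 19017 bp upstream of Fgf6, with a fold enrichment of 19.7 in the other control library and 25.8 and 22.4 in LysMCre+. At the distance limit, the member closest to a TSS lay 1003 bp from that of Gm19510, with 13.9, 5.83, 21.1 and 13.3 in the 4 libraries. A region just inside the limit, and so left out, lay 996 bp from the TSS of Msrb1, with 5.56, 5.28, 4.91 and 4.09. In every list of 4 values, the controls come first.

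The label was compared with the defining genes of LPMs and of other peritoneal cells, taking for each gene the members whose nearest TSS was its own or that lay within it. Of 6 macrophage marker genes, 5 had a member, with 9 members in all, among them 4 at Csf1r (the receptor for the macrophage growth factor CSF1) and 2 at Adgre1 (which encodes F4/80). Of the 4 LPM marker genes on autosomes, 3 had a member, namely Timd4 with 2, Icam2 with 3 and Cd93 with 5, whereas Gata6 had 4 regions but none that met the rule. None of the marker genes of B cells (8 genes), T and NK cells (9 genes), neutrophils (6 genes) or mast cells and basophils (5 genes) had a member. Like Gata6, many of them had regions that missed the rule. Genes without any region numbered 3 for B cells, 3 for T and NK cells, 0 for neutrophils and 3 for mast cells and basophils. Of all 24963 annotated genes, 4228 were the nearest TSS of a member, so genes without a member were common. One mesothelial gene, Upk3b, and one erythroid gene, Epor, had 1 each.

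Members lay in introns in 51.1% of cases (3516 regions, 95% Wilson interval 49.9 to 52.3) and between genes in 48.9% (3364 regions). The median distance from the midpoint to the nearest TSS was 18.9 kb, with quartiles at 7.88 and 42.4 kb. Of the members, 15.4% lay within 5 kb of a TSS, 48.4% between 10 and 50 kb and 7.88% (542 regions) beyond 100 kb. The merged regions had a median width of 557 bp. Per Mb of chromosome, members were most frequent on chromosomes 11 (4.64) and 19 (4.04) and least frequent on chromosome 3 (1.77).

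RefSeq does not hold every start site. In the GENCODE vM21 annotation of the same genome build, a step added after the regions had been seen, 764 members (11.1%, 95% Wilson interval 10.4 to 11.9) had the start of a GENCODE transcript within 1 kb of the midpoint, and 249 (3.62%) that of a coding transcript. Among the 550 members with 10 or more CpG dinucleotides within 100 bp of the strongest summit, 204 (37.1%, interval 33.2 to 41.2) had such a start. Among the 6330 members with fewer CpGs, 560 (8.85%, interval 8.17 to 9.57) had one.

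The fold enrichment of a peak is the ratio of the pileup of tags at its summit to the local background. Over the 6880 members its median was 13.0 in control replicate 1, 6.59 in control replicate 3, 14.3 in LysMCre+ replicate 1 and 11.6 in LysMCre+ replicate 2. The pileup of tags at the summit, inferred from these ratios and their p values, had medians of 77, 17, 83 and 58 tags in the same order. In control replicate 3 the lower quartile was 13 tags, so single regions were measured least precisely there. That library also had the narrowest peaks at the members, with a median of 294 bp against 449 to 511 bp. Peak calls in these 4 libraries chose the members, so the levels are a description.

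**Figure D1:**
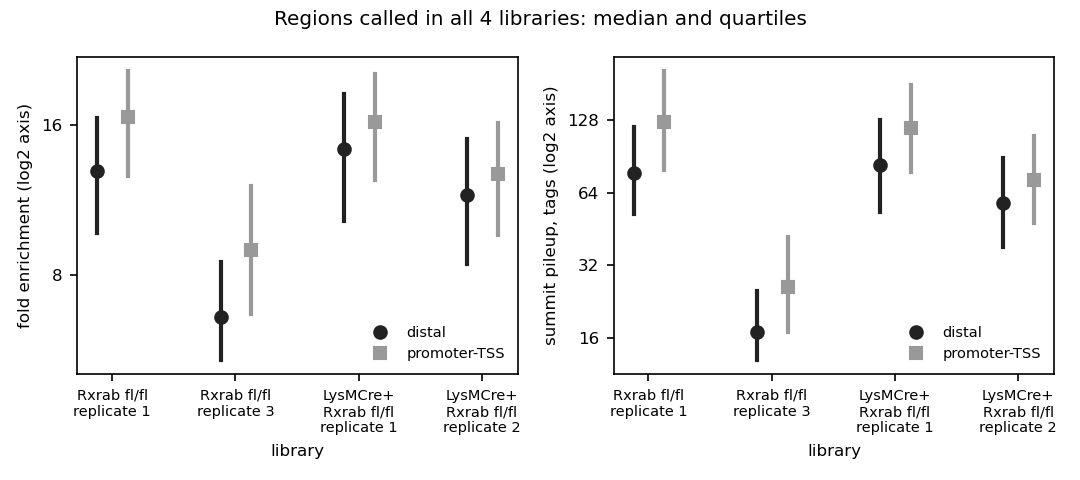
Fold enrichment (left) and summit pileup in tags (right) of the 6880 distal regions (circles) and the 7136 promoter-TSS regions (squares) called in all 4 libraries, on log2 axes, with 1 symbol for the median and a bar for the quartiles of each library. control replicate 3 lies lowest for both kinds of region, and the gap between distal and promoter-TSS medians in fold enrichment is narrower in both LysMCre+ libraries.

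The order of the members by fold enrichment was shared most between the LysMCre+ libraries (Spearman rho over 6880 regions of 0.89) and least between control replicate 3 and the LysMCre+ libraries (0.47 and 0.48). Between the control libraries rho was 0.69, below that of control replicate 1 with either LysMCre+ library (0.77 and 0.74). Replicate 3 of the controls thus stood apart from the other 3 libraries, and its low summit pileups and narrow peaks moved with this. Its lowest background, which follows depth, was 1.06 tags, near the 1.08 tags of LysMCre+ replicate 2. The part of the low pileups and narrow peaks in the result was not tested. Regions are not independent replicates, and these values carry no test.

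Words of macrophage lineage factors were frequent in the members and infrequent in promoters. The AP-1 word was held by 1485 members (21.6%, 95% Wilson interval 20.6 to 22.6), against 3.46% (3.06 to 3.91) of the 7136 promoter-TSS regions called in all 4 libraries and 12.6% of all 70744 regions. For C/EBP the shares were 16.9% of members (16.0 to 17.8), 4.51% of promoters (4.05 to 5.02) and 11.1% of all regions. For PU.1 they were 11.6% (10.9 to 12.4), 2.96% (2.59 to 3.38) and 9.24%. For RUNX they were 22.0% (21.0 to 23.0), 7.32% (6.73 to 7.94) and 17.1%, and for GATA 14.1% (13.3 to 14.9), 3.29% (2.90 to 3.73) and 10.7%. The intervals of members and promoters did not overlap for any of these 5 words. They cover counting error only, and neighbouring regions are not independent.

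Words of promoter factors ran the other way. The SP word, part of the GC box, was held by 7.30% of members (6.71 to 7.94) and 49.1% of promoters (47.9 to 50.2), and the CCGGAAG word of ETS factors by 2.94% (2.56 to 3.36) and 17.7% (16.8 to 18.6). The KLF word was held by 11.1% of members (10.4 to 11.9) and 18.1% of promoters (17.2 to 19.0). The base composition moved with these shares. The median GC content was 51.2% in members and 65.7% in promoters, and the median number of CpG dinucleotides was 3 and 17 in the same window. Its part in the motif shares was not tested.

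The closest set of regions was the 13415 distal regions called in every library but control replicate 3. They were weaker, with a median fold enrichment of 6.40 in control replicate 1 and of 10.1 and 8.01 in LysMCre+, and of like GC content (median 50.2%). They held the AP-1 word in 17.3% of cases (16.7 to 17.9) and the C/EBP word in 14.9% (14.3 to 15.5), both below the members, and the PU.1 word in 12.7% (12.1 to 13.3). The CTCF pattern, bound by the insulator protein CTCF, was found in 1.21% of members (83 regions, interval 0.974 to 1.49) and in 4.42% of the regions missed in that library (593 regions, 4.09 to 4.78). Over all regions its share was 3.91%. Repeat-masked sequence lay under the summit in 8.62% of members (7.98 to 9.31), 10.3% of these regions (9.78 to 10.8) and 4.32% of promoters (3.87 to 4.81).

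**Figure D2:**
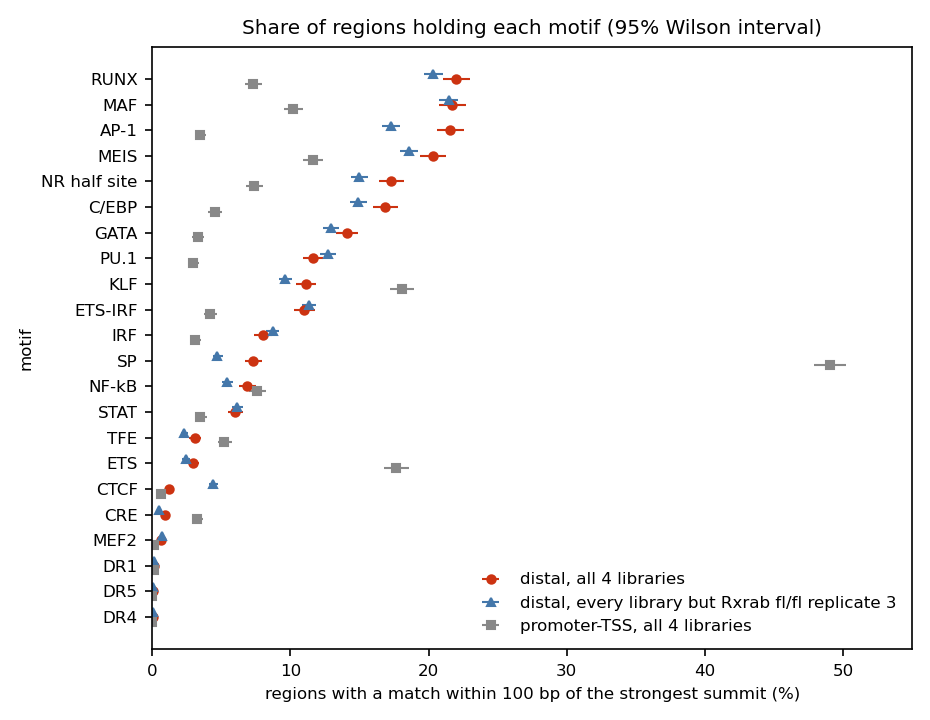
Share of regions (%) with a match of each motif within 100 bp of the strongest summit, with 95% Wilson intervals, for the distal regions called in all 4 libraries (circles), the distal regions missed in control replicate 3 alone (triangles) and the promoter-TSS regions called in all 4 libraries (squares). RUNX, MAF, AP-1 and MEIS lead among the distal regions, SP, KLF and ETS among the promoters, and the CTCF share is 1.21% in the distal regions of all 4 libraries against 4.42% in those missed in the weakest library.

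Words of partner factors were held singly more often than together. Of 6 words (PU.1, C/EBP, AP-1, RUNX, GATA and IRF), 34.8% of members held none, 41.1% held 1 and 24.1% (1659 regions) held 2 or more, against 2.803% of promoters with 2 or more. Members with the PU.1 word held the AP-1 word in 15.9% of cases, and members without it in 22.3%. For AP-1 and RUNX, 342 members held both, and the RUNX word was found in 23.0% of members with and 21.7% of members without the AP-1 word. The full direct repeats of nuclear receptors were rare, with DR1 in 8 members, DR4 in 4 and DR5 in 6, whereas the single AGGTCA word was held by 1190 (17.3%), against 12.95% of all regions.

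The position of the matches was not used in choosing the regions. PU.1 matches were 7.48 times as dense within 25 bp of the summit as between 200 and 250 bp from it, and AP-1 matches 5.37 times. The ratio was 2.44 for C/EBP, 1.66 for RUNX and 10.8 for CTCF, the last on 27 central and 5 flanking matches. GATA matches showed the opposite, with a ratio of 0.71 (252 central and 708 flanking matches). In promoters the GATA ratio was 0.41 and the PU.1 ratio 3.94. The plot of motif positions shows a central peak for PU.1 and AP-1 and a central dip for GATA.

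**Figure D3:**
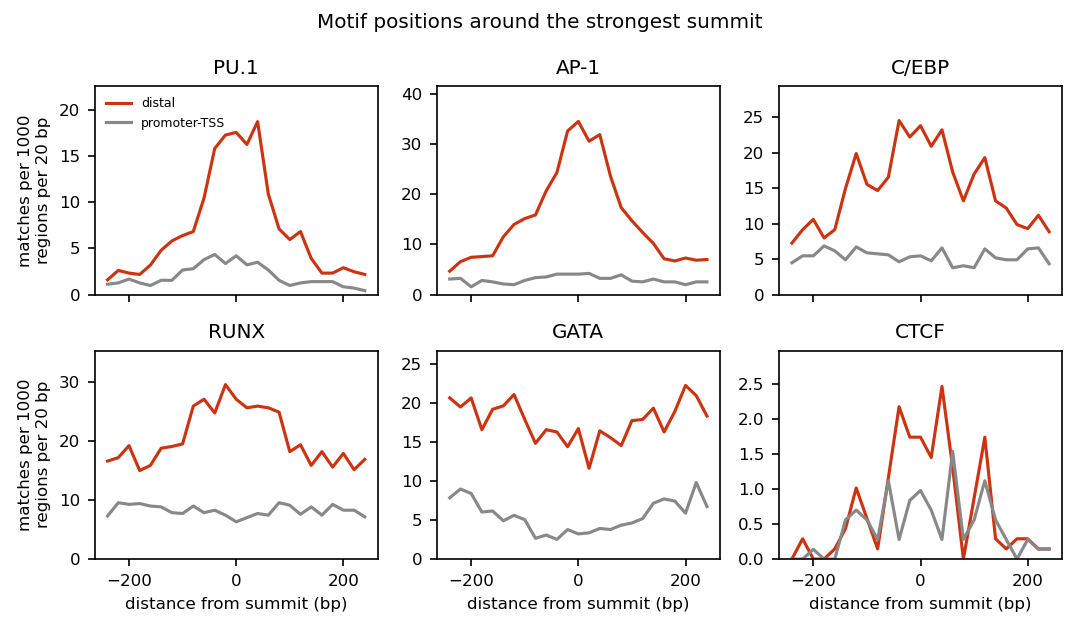
Matches of 6 motifs per 1000 regions and 20 bp (y axis, a scale of its own in each panel) against the distance from the strongest summit in bp (x axis), for the 6880 distal regions and the 7136 promoter-TSS regions called in all 4 libraries. PU.1 and AP-1 matches peak at the summit of distal regions, with 7.48 and 5.37 times the flanking density, and GATA matches dip there to 0.71 times.

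Along the range of accessibility, the share of members with the AP-1 word was 19.6% in the lowest quartile of mean log2 fold enrichment and 25.5% in the highest. The PU.1 share went from 8.78 to 13.8%. The GATA share went from 17.5% in the lowest quartile through 15.6 and 12.4% to 10.8% in the highest, and the C/EBP share was 17.8% in the lowest and 13.4% in the highest. The median GC content was 50.2% in the lowest quartile and 52.7% in the highest.

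The 10 members of highest average log2 fold enrichment, at most 1 per nearest gene, were examined next. The strongest lay in an intron of Mrps27 (a mitochondrial ribosomal protein gene; chr13:99353082-99353592), with 33.1 and 19.0 in controls and 36.3 and 28.7 in LysMCre+. The region between genes 14.2 kb upstream of Actb, the β-actin gene, had 28.3 and 18.1 against 30.4 and 25.5. The region 22.5 kb from the TSS of Fpr2, a receptor for formyl peptides on myeloid cells, had 28.2 and 17.9 against 31.6 and 24.0. The region nearest to Cd83, an activation marker of antigen-presenting cells, lay 79.6 kb away with 30.6 and 16.1 against 31.9 and 26.5. The other 6 were nearest to Gad2, Tob2, Atp6ap1l, 8030442B05Rik, Dnajc3 and Car4, with fold enrichments of 27.2 to 30.5 in control replicate 1, 15.4 to 21.8 in control replicate 3 and 23.9 to 32.0 in LysMCre+, so that control replicate 1 lay within the range of LysMCre+. None of the 10 was called between genotypes (adjusted p of 0.567 to 0.989 from limma). For 3 of them, those nearest to Gad2, Cd83 and Dnajc3, a GENCODE transcript started 26, 6 and 2 bp from the midpoint. The Mrps27, Cd83 and Fpr2 regions held 16, 18 and 14 CpG dinucleotides, well above the median of 3.

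Members were spread over 4228 nearest genes, of which 2800 had 1 member and 153 had 5 or more. Sgms1, which encodes a sphingomyelin synthase, had the most with 17, all within the gene and 4.10 to 65.99 kb from its nearest TSS. Their median fold enrichments were 9.05 and 6.204 in controls and 9.86 and 7.65 in LysMCre+. Of the others, the non-coding gene A630001O12Rik had 15, Smad3 (a transducer of TGF-β signals) had 11, 9 of them within the gene, Dhrs3 (which reduces retinaldehyde to retinol) had 10, and Gm19510 led several genes with 9. On chromosome 8, 10 members near A630001O12Rik stood within 49.6 kb.

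The members lay below promoters in every library, and by less in both LysMCre+ libraries. The median log2 fold enrichment of members minus that of promoter-TSS regions was −0.36 and −0.45 in control replicates 1 and 3, and −0.18 and −0.14 in LysMCre+ replicates 1 and 2. The groups did not overlap, and the means of −0.40 and −0.16 differed by 0.24 (two-sided exact permutation test, n = 2 against 2, p = 0.333, the smallest p that this design allows). On the summit pileup the values were −0.70 and −0.61 against −0.51 and −0.31.

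For single regions, log2 fold enrichment, centred on the median of each library over the 15199 regions called in all 4, was tested with limma. Calls needed an adjusted p (Benjamini-Hochberg) below 0.05 together with a log2 fold change past 1. Of the 6880 members, 6 (0.0872%) were higher and 3 (0.0436%) lower in LysMCre+, where 0.0395% and 0.0461% of all tested regions were called in the same directions. At an unadjusted p under 0.05, 952 members were higher and 692 lower. Counts at an unadjusted p, here and below, and counts with a library left out have no count over all tested regions beside them. They describe the distal regions only. The median standard error of a member was 0.22 on the log2 scale. Without control replicate 3 the calls were 648 and 196 of 20295 distal regions, and without control replicate 1 they were 173 and 206 of 6900.

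The largest increase was 5.13 kb upstream of Zp2 (chr7:120150219-120150630), where the fold enrichment was 10.1 and 4.31 in controls and 25.1 and 22.4 in LysMCre+. The log2 fold change was 1.48 (SE 0.21, adjusted p = 0.0390 from limma), and the pileup was 35 and 9 tags in controls and 107 and 59 in LysMCre+. Between genes 20.2 kb from the TSS of Efna2, which encodes an ephrin ligand, the values were 12.4 and 5.34 against 30.4 and 26.6 (log2 fold change 1.44, adjusted p = 0.0390 from limma). In an intron shared by 6330409D20Rik and Sh2d3c they were 7.99 and 4.74 against 24.0 and 19.2 (1.43). The region 79.2 kb upstream of Ndrg1, a gene of the stress response, had 8.42 and 4.37 against 22.6 and 18.5 (1.38) and held the AP-1 word shown here, with 30 bases from chr15:67048854-67048883 on the plus strand.
Ndrg1: gcatctctgcaTGACTCAgaagccacacat
Regions near Pdlim1, a cytoskeletal adaptor gene, and Dnajb6, a chaperone gene, rose by 1.32 and 1.31 (adjusted p = 0.0449 from limma for both). In all 6, both LysMCre+ libraries lay above both controls. The first 4 were also called higher on the pileup. In control replicate 3 the 6 summits held 7 to 12 tags, below the lower quartile of 13 tags of the members there. The local background of that library was at its lowest value, 1.06 tags, at Efna2, Ndrg1, Pdlim1 and Dnajb6. Over 17 alternatives, Zp2 remained called in 12, Efna2 in 13, 6330409D20Rik in 14, Ndrg1 in 13, and Pdlim1 and Dnajb6 in 8 each.

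The 3 decreases were in introns. In Fcgrt, which encodes the neonatal Fc receptor, and nearest to the TSS of Rcn3 (chr7:45095271-45095874), the fold enrichment was 22.1 and 15.9 in controls and 9.40 and 8.21 in LysMCre+, a log2 fold change of −1.46 (SE 0.23, adjusted p = 0.0449 from limma). In Pxn, which encodes the focal adhesion protein paxillin, the values were 10.4 and 5.49 against 3.54 and 3.55 (−1.46), and in Emp1, a membrane protein gene, they were 12.3 and 7.93 against 5.52 and 4.50 (−1.35). Both LysMCre+ libraries lay below both controls in each. Over 17 alternatives, Rcn3 remained called in 9, Pxn in 7 and Emp1 in 6. On the pileup none of the 3 passed the threshold (log2 fold changes of −0.70, −0.26 and −0.63). The local background at these summits was 8.36 to 10.8 tags in control replicate 1, 2.02 to 2.64 tags in control replicate 3 and 9.84 to 20.2 tags in LysMCre+.

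The summit pileup, centred on the median of each library in the same way, gave many more calls. Tags printed in the text are not centred. Their median over the members was 17 in control replicate 3 and 58 to 83 in the other libraries. A call of lower can thus stand beside more tags in LysMCre+ than in control replicate 3. Of the 6879 members with a solved pileup in every library, 279 (4.06%) were higher and 353 (5.13%) lower in LysMCre+, where 2.49% and 4.98% of all tested regions were called. Of these 632 members, 4 were called on both measures and none in opposite directions. Without LysMCre+ replicate 2, limma called 0 distal regions on the pileup in either direction, with 735 and 1084 of 6972 at an unadjusted p under 0.05. Without control replicate 3 it called 1369 and 1225 of 20294, without control replicate 1 343 and 646 of 6900, and without LysMCre+ replicate 1 159 and 148 of 6911.

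Whether both libraries of one genotype lay above both of the other was counted as well. On centred fold enrichment, 2076 members (30.2%) had both LysMCre+ libraries above both controls and 1624 (23.6%) had both below, where 22.3% and 32.9% of all tested regions did so. Centring on the members alone in place of all tested regions turned this to 22.2% and 33.1%, so the balance of directions over the members followed the centring. Members 1 to 5 kb from a TSS were higher in 16.3% and lower in 34.6% of cases, whereas those over 50 kb away were higher in 32.4% and lower in 21.0%. The median log2 fold change on fold enrichment was −0.16 at 1 to 5 kb and 0.056 over 50 kb. On the summit pileup the order of these medians was the opposite, with 0.013 at 1 to 5 kb and −0.11 over 50 kb. There limma called 35 members higher and 38 lower of 1060 at 1 to 5 kb, and 41 and 111 of 1421 over 50 kb. Of all tested regions, it called 2.49% higher and 4.98% lower.

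A difference between members with and without a word does not move with the centring, so words were compared in this way. In each library, the median log2 fold enrichment of members with a word minus that of members without it was taken for the 19 words with at least 30 members. For the CTCF pattern (83 members) it was −0.16 and −0.18 in controls and 0.11 and 0.19 in LysMCre+. For PU.1 (799 members) it was 0.062 and 0.019 against 0.16 and 0.14, and for IRF (550 members) −0.047 and −0.069 against 0.046 and 0.093. For GATA (968 members) it ran the other way, with −0.036 and −0.048 against −0.23 and −0.18. The AGGTCA word (1190 members) had 0.025 and 0.043 against −0.041 and −0.094. For CRE, held by 64 members only, it was 0.18 and 0.075 in controls and −0.069 and −0.084 in LysMCre+. In all, the genotypes did not overlap for 12 of the 19 words, with LysMCre+ above for CTCF, IRF, PU.1, ETS-IRF and MAF and below for GATA, CRE, the AGGTCA word, SP, NF-kB, KLF and RUNX. On the pileup they did not overlap for 8 words, of which 5 lay on the same side as on fold enrichment (CTCF and PU.1 above, CRE, GATA and the AGGTCA word below), while KLF and SP lay above and C/EBP below. The IRF values overlapped on the pileup, with −0.24 and −0.13 in controls and −0.22 and −0.051 in LysMCre+. AP-1 (1485 members) had 0.085 and 0.055 against 0.10 and 0.047, and C/EBP (1160 members) −0.062 and −0.056 against −0.087 and −0.034, with overlap between the genotypes. No word could pass the threshold, since exact permutation of 2 against 2 libraries gives no two-sided p below 0.333 (0.528 after adjustment over the 19 words).

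**Figure D4:**
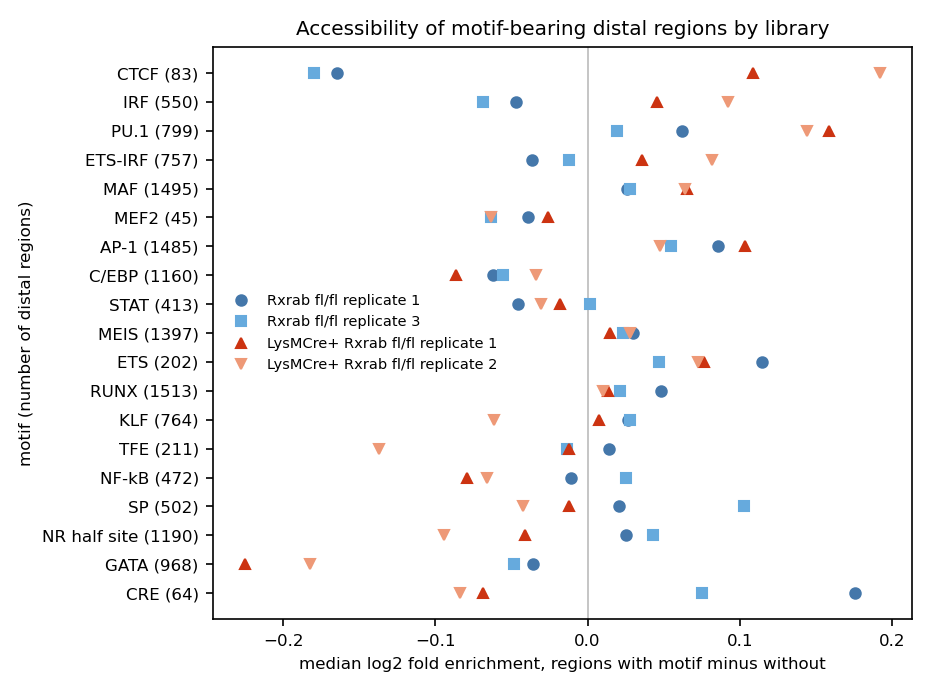
Median log2 fold enrichment of distal regions with a motif minus that of regions without it (x axis), for the 19 motifs held by at least 30 regions (y axis, number of regions in brackets), with 1 symbol per library. The genotypes stand apart for 12 motifs, with both LysMCre+ libraries to the right of both controls for 5, led by CTCF, IRF and PU.1, and to the left for 7, led by CRE, GATA and the nuclear receptor word AGGTCA.

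Members were also counted for 4 of these words. Of the 83 members with the CTCF pattern, 52 (62.7%) had both LysMCre+ libraries above both controls and 5 (6.02%) below. Of those with the PU.1 word, 39.2% lay above and 14.5% below, and of those with the IRF word 40.5% and 16.4%. Of those with the GATA word, 21.7% lay above and 33.1% below. The shares were 30.2% and 23.6% over all members. Over all tested regions they were 22.3% and 32.9%, near those of the GATA word. Centred on the members alone, the shares above and below were 50.6% and 12.05% for CTCF, 28.4% and 21.9% for PU.1, 31.6% and 23.8% for IRF, and 16.2% and 43.3% for GATA. On this centring they were 22.2% and 33.1% over all members and 15.5% and 44.6% over all tested regions. Against control replicate 1 alone, leaving out the weakest library, both LysMCre+ libraries lay above in 79.5% of the CTCF members, 54.9% of the PU.1 members and 32.7% of the GATA members, beside 45.5% of all members. Over all tested regions this share was 36.0%. On the pileup, where limma called 2.49% of all tested regions higher and 4.98% lower, it called 116 members with the GATA word lower (11.98%) and 16 higher (1.65%). For PU.1 it called 46 higher (5.76%) and 19 lower (2.38%), and for CTCF 11 higher (13.3%) and 1 lower (1.20%). For IRF it called 22 higher (4.00%) and 19 lower (3.45%), beside 4.06% and 5.13% of all members, and 31.1% of the IRF members lay above both controls, beside 30.8% of all members.

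Rxra itself had 5 members, all in its introns, and Rxrb had none. The region at chr2:27757954-27759074, 47.9 kb from the nearest TSS, had pileups of 65 and 12 tags in controls and 213 and 219 in LysMCre+, a log2 fold change of 2.09 on the pileup (SE 0.27, adjusted p = 0.0183 from limma). The region at chr2:27739859-27740671 had 185 and 30 against 430 and 276 tags (1.34, adjusted p = 0.0199 from limma), and its midpoint lay 64 bp from a GENCODE transcript start. The local background was 6.06 and 1.42 tags in controls and 15.6 and 17.1 in LysMCre+ at the first of these regions, and 8.94 and 2.34 against 20.4 and 17.6 at the second. On fold enrichment, the ratio of the pileup to that background, the changes were 0.45 and 0.028 and neither was called (adjusted p = 0.234 and 0.953 from limma). The other 3 had log2 fold changes of 0.64 to 0.89 on the pileup and of −0.69 to −0.52 on fold enrichment, and none passed both thresholds on either measure.

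For the LPM identity genes, 17 of 22 autosomal genes had a member, with 44 members in all. None was called on fold enrichment, where the median log2 fold change was −0.13 against −0.087 over all tested regions. On the pileup 9 of the 44 (20.5%, against 4.98% of all tested regions) were lower in LysMCre+ and none higher, with a median of −0.65 against −0.10 over all tested regions. The genes were chosen with results of these data known, so the count describes the list only. The 9 were 2 at Cd93 (a receptor of the C-type lectin group), 2 at Naip1 (an inflammasome sensor), 2 at Garnl3 and 1 each at F5 (coagulation factor V), Serpinb2 (a protease inhibitor) and Ltbp1 (a TGF-β binding protein), named because they were called. At Cd93 the region 49.0 kb upstream of the TSS had pileups of 141 and 34 tags in controls and 60 and 32 in LysMCre+ (log2 fold change −1.52, adjusted p = 0.0183 from limma), and on fold enrichment 19.6 and 11.4 against 12.2 and 8.68. The strongest Cd93 region, 35.0 kb upstream of its TSS, had a fold enrichment of 22.2 and 11.2 against 26.9 and 22.0 and was not called. It held an AP-1 word, shown with 30 bases from chr2:148478537-148478566 on the plus strand.
Cd93: ctcgaggtctgTGAGTCActgctagttgcc
In Garnl3, the region at chr2:33041565-33042012 had 126 and 29 tags in controls and 26 and 40 in LysMCre+ (log2 fold change on the pileup −1.77, adjusted p = 0.0258 from limma). Of the strongest members per gene, that of Serpinb2 had a fold enrichment of 26.7 and 13.2 against 24.8 and 22.1. That of Icam2, in an intron of Ern1 45.5 kb from the Icam2 TSS, had 22.8 and 11.2 against 26.0 and 24.0. That of C4b (a complement component) had 22.3 and 11.2 against 22.8 and 23.8, and that of Ltbp1 23.3 and 10.9 against 19.4 and 18.3. That of Garnl3 had 20.5 and 11.1 against 24.2 and 19.9. None of these was called on either measure.

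**Figure D5:**
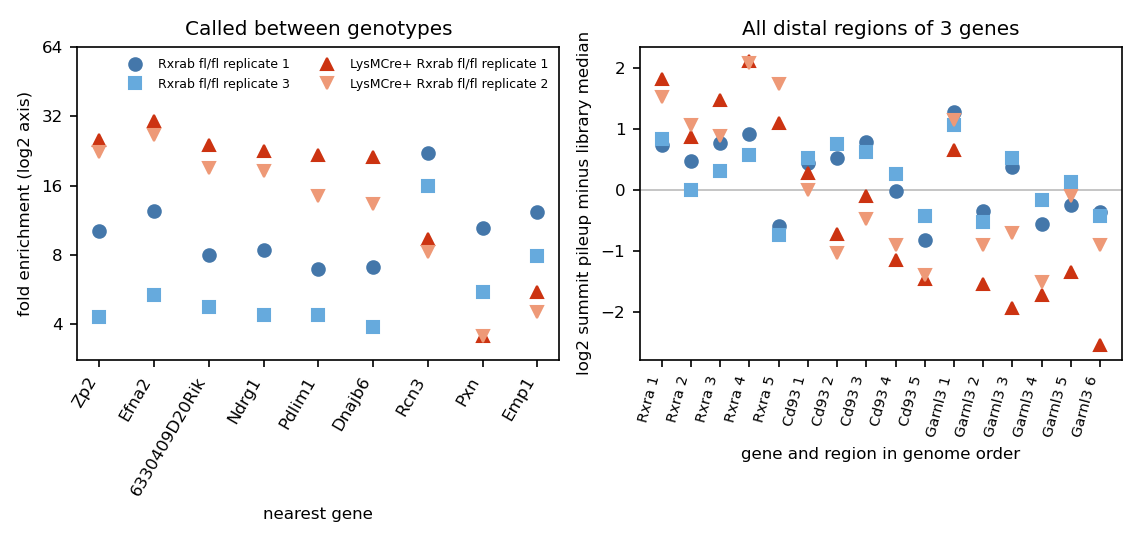
Left, fold enrichment (log2 axis) of the 9 distal regions called between genotypes, labelled by nearest gene, with 1 symbol per library. Right, log2 summit pileup minus the median of the library for every distal region of Rxra, Cd93 and Garnl3 in genome order. The 6 regions on the left from Zp2 to Dnajb6 lie higher in both LysMCre+ libraries and the 3 from Rcn3 to Emp1 lower, and all 5 Rxra regions have a higher centred pileup in both LysMCre+ libraries.

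Of the 26 core macrophage genes, 20 had a member, with 60 members. On the pileup 3 were higher and 2 lower (5.00% and 3.33%, against 2.49% and 4.98% of all tested regions), and none was called on fold enrichment (median log2 fold change −0.051). The higher ones, named because they were called, were 2 at Fli1 (an ETS factor) and 1 upstream of Cebpa, which encodes C/EBPα, with pileups of 34 and 9 tags in controls and 72 and 63 in LysMCre+ (log2 fold change 1.08, adjusted p = 0.0320 from limma). Klf4, a zinc finger factor, had 8 members up to 581.4 kb away, of which 2 were lower on the pileup, at 190.1 and 265.8 kb upstream. The latter had 139 and 24 tags in controls and 47 and 40 in LysMCre+ (log2 fold change −1.28, adjusted p = 0.0217 from limma). On centred fold enrichment, 4 of the 8 Klf4 members lay above both controls in both LysMCre+ libraries and 2 below. The shares over all tested regions were 22.3% and 32.9%. The strongest Klf4 region, 91.1 kb upstream, had a fold enrichment of 20.9 and 7.53 against 25.4 and 19.3 and was not called. Zeb2, a repressor that preserves macrophage identity, had 6 members, of which 5 lay below both controls in both LysMCre+ libraries on centred fold enrichment, where 32.9% of all tested regions did so, and none was called on either measure. Its intronic region of highest enrichment stood at 23.2 and 14.6 in controls and 15.9 and 14.6 in LysMCre+ (log2 fold change −0.64, SE 0.22, adjusted p = 0.121 from limma). Spi1, which encodes PU.1, had 1 member with 5.35 and 4.98 against 6.03 and 6.02. The strongest Klf2 region, 15.3 kb upstream, had 20.9 and 10.7 against 22.2 and 18.2.

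Of the 27 genes of retinoid and partner receptors and their targets, 17 had a member, with 52 members and a median log2 fold change of −0.24 on fold enrichment. None was called on fold enrichment, and on the pileup 2 were higher, both at Rxra, and 2 lower (3.85% each, against 2.49% and 4.98% of all tested regions). The lower ones were the region 13.7 kb upstream of Pdk4 (pyruvate dehydrogenase kinase, a target of peroxisome proliferator-activated receptors) and the one 4.75 kb from the TSS of Cyp26a1 (which degrades retinoic acid). At Pdk4 the pileup was 91 and 17 tags in controls and 25 and 12 in LysMCre+ (log2 fold change −2.05, SE 0.24, adjusted p = 0.0183 from limma), and at Cyp26a1 it was 55 and 12 against 24 and 21 (−1.06, adjusted p = 0.0296 from limma). Abca1, the cholesterol exporter regulated by liver X receptors, had 7 members within the gene, with log2 fold changes on the pileup of −0.79 to 0.50 and none called. Dhrs3 had 10 members, the strongest of them in an intron of the neighbouring Vps13d with 25.3 and 13.0 against 24.4 and 15.4. That of Tgm2 (a transglutaminase induced by retinoic acid) had 19.7 and 15.8 against 20.9 and 16.5, that of Nr4a1 (an orphan receptor that pairs with RXR) 21.1 and 15.2 against 17.9 and 15.9, that of Scd2 (a fatty acid desaturase) 20.8 and 13.5 against 22.4 and 14.98, and that of Ppard 16.5 and 12.9 against 18.6 and 16.1.

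Of the 19 genes of small peritoneal macrophages and monocytes, 5 had a member, with 8 members. The region 25.1 kb from the TSS of Ly6c2, a monocyte surface marker, had pileups of 150 and 65 tags in controls and 55 and 33 in LysMCre+ (log2 fold change −2.08, SE 0.33, adjusted p = 0.0187 from limma). On fold enrichment it had 20.5 and 15.6 against 15.1 and 10.8 (−0.86, adjusted p = 0.0829 from limma). The strongest Irf4 region had 16.2 and 4.64 against 21.6 and 15.5. That of Mrc1 (the mannose receptor), in an intron of Tmem236 22.3 kb from the Mrc1 TSS, had 9.64 and 5.17 against 13.1 and 13.7. Neither was called. The strongest H2-Aa region, with 11.9 and 6.62 against 10.7 and 10.0, was not called either. For cell cycle and survival genes, 12 of 17 had a member, with 23 members, of which 3 were higher and 2 lower on the pileup (13.0% and 8.70%, against 2.49% and 4.98% of all tested regions). The higher ones were at Ccnd1 and Ccnd3 (D-type cyclins) and Mki67, and the lower ones at Bcl2 and Bcl2l11, regulators of apoptosis. None of the 23 was called on fold enrichment, where the median log2 fold change was −0.27 against −0.087 over all tested regions. Both LysMCre+ libraries lay above both controls in 13.0% of the 23 and below in 34.8%. Over all tested regions these shares were 22.3% and 32.9%. The lower Bcl2 region, in an intron 35.9 kb from the TSS, had pileups of 44 and 13 tags in controls and 16 and 12 in LysMCre+ (log2 fold change −1.65, adjusted p = 0.0183 from limma). The strongest regions of Myc (21.8 and 10.1 against 19.1 and 19.4) and Bcl2 (22.7 and 9.32 against 23.3 and 16.2) were not called. The same held for those of Cdk6 (16.9 and 11.5 against 14.2 and 14.2) and Ccnd1 (14.7 and 9.51 against 16.3 and 16.5).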

How the data were processed

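The authors trimmed reads with cutadapt 1.7, aligned them to mm10 with Bowtie2, discarded duplicates, poorly mapped reads and all reads of sex chromosomes or mitochondria, and called peaks per library with MACS2 2.1.1 (extension 200 bp, q value 0.05), removing blacklisted regions. The deposited peak lists hold a fold enrichment ratio, the −log10 of the p and q values and the summit position. Read counts were not analysed here, so the authors' count test was not repeated. Per the paper, samples that did not cluster with their group were left out. Whole-number pileups were solved from fold and p with a pseudocount of 1 (3 of 175147 peaks failed). The lowest background, which follows depth, was 1.97 and 1.06 tags in control replicates 1 and 3 and 1.33 and 1.08 in LysMCre+ replicates 1 and 2. Regions were placed on 43783 RefSeq transcripts, counting as promoter-TSS the 1 kb before and the 200 bp after a start, and as transcript ends 100 bp before to 1 kb after them. limma 3.58.1 in R 4.3.3 was fitted on all 15199 regions. The solver, the motif search and limma were tested on simulated data.

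The members, gene lists and tests were chosen with earlier results of these data known. Regions named were the 10 strongest, those past the limma threshold (up to 8 per direction), the strongest of up to 6 genes per LPM, macrophage and retinoid list and up to 4 per other list, the genes with most members (ties by the strongest region), and those at the limits of the rule. Other named regions were chosen after their values were seen.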

Additional observations from a re-analysis of the deposited data

How the results depend on the processing

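With 2 libraries per genotype no permutation test could pass 0.05, and single regions rested on a median of 17 tags in control replicate 3. No paired analysis was possible because the genotypes share only the replicate number 1. The number of distal regions lay between 5820 and 7160 under a q value of 0.01, stricter overlap, summit windows, 5 kb from a TSS and NM transcripts, and between 6900 and 20295 without 1 library, the latter without control replicate 3.

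Calls, higher and lower in LysMCre+, were 6 and 3 on fold enrichment and 279 and 353 on the summit pileup. On fold enrichment they were 9 and 1 after quantile normalization and 52 and 27 with a mean-variance trend. With regions called in at least 3 libraries in the fit, the calls were 52 and 37. They were 6 and 16 when centred on the distal regions alone, and 6 and 3 with a q value of 0.01 or the adjusted p alone. With the mean over the peaks of a region limma called 0 and 0, with 814 and 589 at an unadjusted p under 0.05. Without 1 library, where a lone library was assumed to vary like the other genotype, they were 3 to 648 and 6 to 206. On the pileup they were 305 and 320 with a trend, 231 and 485 when centred on the distal regions, 343 and 646 without control replicate 1, 1369 and 1225 without control replicate 3, 159 and 148 without LysMCre+ replicate 1, and 0 and 0 (735 and 1084 at an unadjusted p under 0.05) without LysMCre+ replicate 2, settings added after seeing the data. The cause was not tested. The 9 called regions kept their direction except Pxn on the pileup without LysMCre+ replicate 1 (0.019). For regions that no fit called the sign was not read.

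The difference between distal and promoter medians kept its direction in all 3 alternatives. For motif differences the sign turned on the pileup for AP-1 (−0.072), KLF (0.069), SP (0.12), MEIS (0.035) and MEF2 (−0.038), within 50 bp for TFE (0.012), and within GC deciles for AP-1 (−0.0030) and MEF2 (−0.0048). CTCF, PU.1, IRF, GATA and AGGTCA kept theirs. Of 22 motif shares, 0 left their interval with windows on the summits of control replicate 1, and 21 and 20 did with 50 and 250 bp.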
